A study of Mus musculus with 24 samples.

Results

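Messenger RNA of 7 potassium channel genes was compared between Q111 and wild-type mice in striatum and cerebellum. The genes were the 4 of the small- and intermediate-conductance family (Kcnn1, Kcnn2, Kcnn3 and Kcnn4), the BK pore gene Kcnma1, the BK accessory gene Kcnmb4, and Kcnt1. They were chosen by name, and Kcnn2 was put among them because it was higher in Q111 mice in both tissues of these arrays. Its genotype differences are therefore given as a description, with no test. All probe sets whose single gene symbol is one of these names were taken, 15 of the 34945 probe sets with a single symbol.

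RNA from each tissue was hybridised to Affymetrix mouse arrays, 24 in all, with 6 arrays in each of 4 groups. Q111 striatum and Q111 cerebellum came from HdhQ111/HdhQ111 mice, which carry an expanded run of glutamine codons, named Q111 for its length, in both copies of their own huntingtin gene. Wild-type striatum and wild-type cerebellum came from Hdh+/Hdh+ mice, given as Q7/Q7 for their 7 glutamines. The labels give an age of 3 to 10 weeks for every array, give no sex, and call the replicates biological without saying that each was a separate mouse, so a p-value covers only how much these samples varied, which may in part be technical.

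Small-conductance (SK) channels open when calcium binds the calmodulin held on each subunit, and the potassium current they pass follows an action potential and slows the next. BK channels need both calcium and depolarisation, and they help to end the action potential itself. In striatal projection neurons and in cerebellar Purkinje cells both kinds of channel set the rate and the regularity of firing, which has made them a subject of work on movement disorders.

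A value is the deposited GCRMA value of a probe set, read as log2, and a difference of 1 on this scale is a doubling. A probe set was tested if it averaged 4 or more in either tissue. Of the 15 probe sets 8 passed, from 4 of the 7 genes, and all 8 passed in both tissues. These were the only probe set of Kcnn2, 3 of the 5 of Kcnma1, the only 1 of Kcnmb4 and all 3 of Kcnt1. Where a gene had several, the brightest stood for it. Where in a transcript each probe set lies was not examined, so differences between probe sets of a gene are given as they stand. The arrays hold whole tissue, where fewer cells of a type and less RNA per cell cannot be told apart.

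The tissue labels fitted the markers. In wild-type mice all 10 measured markers of striatal projection neurons were higher in striatum than in cerebellum and all 8 of granule neurons were lower. Of 7 Purkinje cell markers 6 were lower in striatum and Itpka was higher. At a limma adjusted p of 0.05, 30.6% of all probe sets were higher in striatum and 41.2% lower. Replicate numbers 1 to 3 and 4 to 6 had a pattern of their own that touches several values below. Within a group the means of these number sets differed by up to 0.77 in striatum and 0.25 in cerebellum over the 8 channel probe sets, but over all 12 arrays of a tissue by at most 0.10 and 0.08. A shift between the number sets in Q111 arrays was thus met by an opposite shift in wild-type arrays, and genotype differences within each set are given for the tested probe sets where the sets differ in sign. Whether values were adjusted between the number sets before deposit is stated in none of the labels or notes used here, and the p-values allow for no such step.

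Kcnn2, which encodes the SK2 subunit, was higher in Q111 mice in both tissues. It read 8.54 at the lowest, 8.72 at the median and 8.84 at the highest in Q111 striatum, against 8.21, 8.31 and 8.37 in wild-type striatum. In cerebellum the lowest, median and highest were 9.20, 9.33 and 9.40 in Q111 mice, against 8.82, 8.90 and 9.13 in wild-type mice. In each tissue every Q111 array lay above every wild-type array. Of the 20738 probe sets tested, 0.714% were higher in Q111 striatum and 0.178% in Q111 cerebellum with no overlap between genotypes, a background from which nothing is read for Kcnn2, since these differences chose it.

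The mean of Kcnn2 was 8.69 ± 0.11 in Q111 striatum and 8.30 ± 0.06 in wild-type striatum (SD, n = 6 arrays each), a difference of 0.40 or 1.32-fold. It was 9.31 ± 0.08 in Q111 cerebellum and 8.94 ± 0.11 in wild-type cerebellum (SD, n = 6 arrays each), a difference of 0.37 or 1.29-fold. The striatal difference minus the cerebellar one was 0.03, but it ran from -0.02 to 0.04 over the alternative settings and from -0.01 to 0.06 with single arrays left out, so no order is read from it. Within replicate numbers 1 to 3 the difference was 0.44 in striatum and 0.40 in cerebellum, and within numbers 4 to 6 it was 0.35 and 0.34. Among the 4 groups Kcnn2 was highest in Q111 cerebellum, followed by wild-type cerebellum, Q111 striatum and wild-type striatum. Each neighbouring pair in this order was separated except wild-type cerebellum and Q111 striatum, whose ranges met between 8.82 and 8.84.

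**Figure D1:**
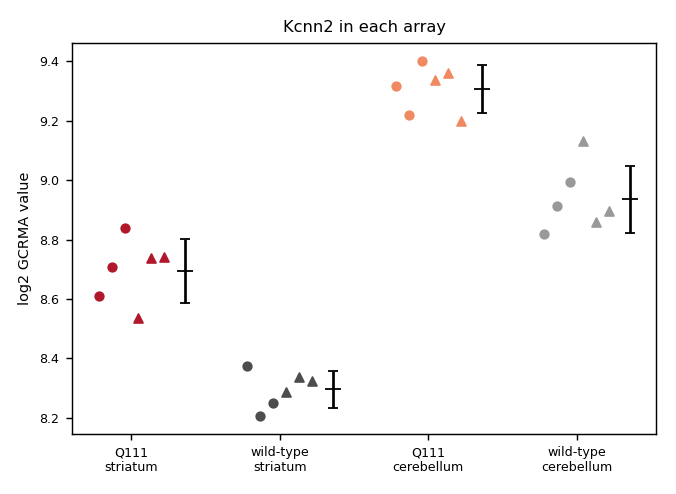
Kcnn2 (probe set 1448927_at) in each of 24 arrays. The vertical axis is the log2 GCRMA value, circles are replicate numbers 1 to 3, triangles numbers 4 to 6, and bars the mean and SD of 6 arrays. Every Q111 array lies above every wild-type array of its tissue, and striatum lies below cerebellum in either genotype.

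The other 3 SK-family genes gave no signal above the filter. Kcnn1 (SK1) was the nearest to it, with 3.77 ± 0.04 in Q111 striatum and 3.65 ± 0.07 in wild-type striatum, and 3.47 ± 0.06 in Q111 cerebellum and 3.43 ± 0.08 in wild-type cerebellum (SD, n = 6 arrays each). Its other probe set read between 2.72 and 3.12 on average, and in both the genotypes overlapped in each tissue. Kcnn3 (SK3) averaged 1.95 in Q111 and in wild-type striatum, and 1.93 and 1.94 in Q111 and wild-type cerebellum. Both probe sets of Kcnn4, an intermediate-conductance channel best known from blood and immune cells, stayed under 3 in every array, and their genotype differences ran between -0.08 and 0.03. With the 2 dim probe sets of Kcnma1, all 7 probe sets under the filter lay between 1.75 and 3.91, so low that no difference is read from them. A dim probe set does not show that its gene is silent, since Kcnma1 also had 3 probe sets that passed.

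Kcnma1 encodes the pore of the BK channel. Its brightest probe set, 1425987_a_at, read 7.64, 7.80 and 7.93 at the lowest, median and highest in Q111 striatum, against 7.24, 7.36 and 7.65 in wild-type striatum. The groups overlapped only between 7.64 and 7.65, and all 6 Q111 arrays lay above the wild-type mean. The difference of 0.38 (SE 0.11, 95% interval 0.15 to 0.61), 1.30-fold, missed the threshold with a limma adjusted p of 0.0597 over all probe sets tested. The exact permutation p for this probe set alone was 0.00433, unadjusted, where the smallest the design allows is 0.00216. The difference was 0.35 in replicate numbers 1 to 3 and 0.42 in numbers 4 to 6. Quantile normalising the arrays again, centring each on its median, weighting the arrays and fitting striatum alone each took it past the threshold, with adjusted p-values of 0.0166, 0.0172, 0.0449 and 0.0325. Over all 15 alternative settings the difference ran from 0.29 to 0.44, and the limma adjusted p reached 0.267. With single arrays left out the limma adjusted p ran from 0.0518 to 0.136.

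In cerebellum the same probe set ran from 7.76 through 7.98 to 8.34 in Q111 mice, against 7.79, 8.21 and 8.49 in wild-type mice. The genotypes overlapped over most of their range. The difference was -0.15 (95% interval -0.38 to 0.08, limma adjusted p = 0.585). The striatal difference exceeded the cerebellar one by 0.53 (SE 0.16, 95% interval 0.21 to 0.86), which did not pass the threshold (limma adjusted p = 0.174).

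The other 2 tested probe sets of Kcnma1 had mean differences of the same sign in striatum, but not within both number sets. Probe set 1428948_at averaged 7.64 ± 0.23 in Q111 striatum and 7.40 ± 0.36 in wild-type striatum, and 1424848_at averaged 6.03 ± 0.53 and 5.77 ± 0.58 (SD, n = 6 arrays each). Their differences of 0.23 and 0.26 had limma adjusted p-values of 0.380 and 0.662. Within replicate numbers 1 to 3 they were -0.10 and -0.41, and within numbers 4 to 6 they were 0.57 and 0.93. Only the brightest probe set was therefore higher in Q111 striatum within both number sets. In cerebellum the differences of the other 2 were -0.06, which median centring turned to 0.04, and -0.11, with limma adjusted p-values of 0.904 and 0.901. There the number sets also differed in sign, with 0.03 for both in numbers 1 to 3, and -0.14 and -0.26 in numbers 4 to 6.

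Kcnmb4 encodes the beta4 subunit, which joins the BK pore in neurons and slows its opening. It read 9.24, 9.72 and 9.85 at the lowest, median and highest in Q111 striatum, against 9.28, 9.43 and 9.60 in wild-type striatum. Of the 6 Q111 striatum arrays 4 lay above every wild-type array and 1 below all of them. The difference was 0.20 (95% interval -0.02 to 0.42, limma adjusted p = 0.327, exact permutation p = 0.0909). It was 0.34 in replicate numbers 1 to 3 and 0.05 in numbers 4 to 6, and -0.04 with the level of cortical neuron markers, described below, as a covariate.

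In cerebellum Kcnmb4 lay on the other side. It read 10.13, 10.34 and 10.61 at the lowest, median and highest in Q111 cerebellum, against 10.20, 10.70 and 10.73 in wild-type cerebellum. Of the 6 Q111 arrays 5 lay under the wild-type mean, though the ranges overlapped. The difference was -0.25 (95% interval -0.47 to -0.02, limma adjusted p = 0.302, exact permutation p = 0.0563), and -0.18 and -0.31 within the number sets. The striatal difference exceeded the cerebellar one by 0.45 (95% interval 0.13 to 0.76), which also missed the threshold (limma adjusted p = 0.270).

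With each group's mean subtracted, the brightest Kcnma1 probe set, 1425987_a_at, and Kcnmb4 correlated at 0.499 over the 24 arrays, which share processing and, in pairs of groups, tissue. The other 2 tested Kcnma1 probe sets correlated with Kcnmb4 at 0.04 and 0.17, and these correlations are a description with no background computed. As the 2 genes encode subunits of the same channel, the 250 bases before each of their starts are shown, both read from the minus strand of GRCm38.p6 in RefSeq. Capitals mark each GGGCGG, the core of a GC box, or its complement CCGCCC.

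Kcnma1, chr14:24004206-24004455: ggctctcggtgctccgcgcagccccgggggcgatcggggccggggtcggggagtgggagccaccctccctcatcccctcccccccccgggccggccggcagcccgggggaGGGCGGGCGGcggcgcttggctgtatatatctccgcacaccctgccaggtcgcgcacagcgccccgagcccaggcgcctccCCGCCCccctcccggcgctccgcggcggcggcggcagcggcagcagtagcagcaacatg

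Kcnmb4, chr10:116473524-116473773: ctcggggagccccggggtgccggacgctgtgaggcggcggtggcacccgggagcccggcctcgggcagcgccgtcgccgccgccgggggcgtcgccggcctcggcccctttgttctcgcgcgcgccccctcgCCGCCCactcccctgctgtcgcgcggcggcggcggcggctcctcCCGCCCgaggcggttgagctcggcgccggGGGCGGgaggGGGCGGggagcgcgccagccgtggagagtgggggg

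Both stretches are rich in G and C, with 79.2% in Kcnma1 and 83.6% in Kcnmb4, against a median of 52.4% over 32851 promoters of the same length. GGGCGG, searched on both strands, occurs 3 times in the Kcnma1 stretch, of which 2 overlap in a single run of 10 capitals, and 4 times in that of Kcnmb4. Of all promoters 32.7% hold at least 1. Neither stretch holds CCAAT or TATAAA on either strand, which 33.8% and 12.4% of all promoters hold. Letters found or not found in such a window are a description and say nothing of a factor's binding. Of the 7 genes 5 had a promoter in the table.

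Kcnt1 encodes a channel of the same extended family that opens on sodium rather than calcium. Its brightest probe set, 1439486_at, averaged 8.43 ± 0.19 in Q111 striatum and 8.51 ± 0.26 in wild-type striatum, and 8.97 ± 0.11 in Q111 cerebellum and 8.94 ± 0.17 in wild-type cerebellum (SD, n = 6 arrays each). Its genotype differences were -0.08 in striatum (95% interval -0.31 to 0.14, limma adjusted p = 0.738) and 0.03 in cerebellum (95% interval -0.19 to 0.26, limma adjusted p = 0.936). In striatum the sign depended on the arrays used, with -0.40 in replicate numbers 1 to 3 and 0.23 in numbers 4 to 6.

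The dimmest probe set of Kcnt1, 1441511_at, stood lower in Q111 striatum. It read 5.89, 6.23 and 6.32 at the lowest, median and highest in Q111 striatum, against 6.02, 6.53 and 6.64 in wild-type striatum. All 6 Q111 arrays lay below the wild-type mean, but 1 wild-type array lay among them. The difference of -0.29 (95% interval -0.52 to -0.05) had an exact permutation p of 0.0411 and a limma adjusted p of 0.162, and it was -0.47 and -0.10 within the number sets. The third probe set, 1458428_at, differed by -0.03 in striatum, or 0.02 after median centring, and by 0.11 in cerebellum (limma adjusted p = 0.897 and 0.681 as deposited). Its number sets differed in sign in both tissues, with -0.20 and -0.09 in striatum and cerebellum for numbers 1 to 3, and 0.14 and 0.30 for numbers 4 to 6. In cerebellum 1441511_at differed by 0.01 (limma adjusted p = 0.976), with 0.07 and -0.04 within the number sets.

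**Figure D2:**
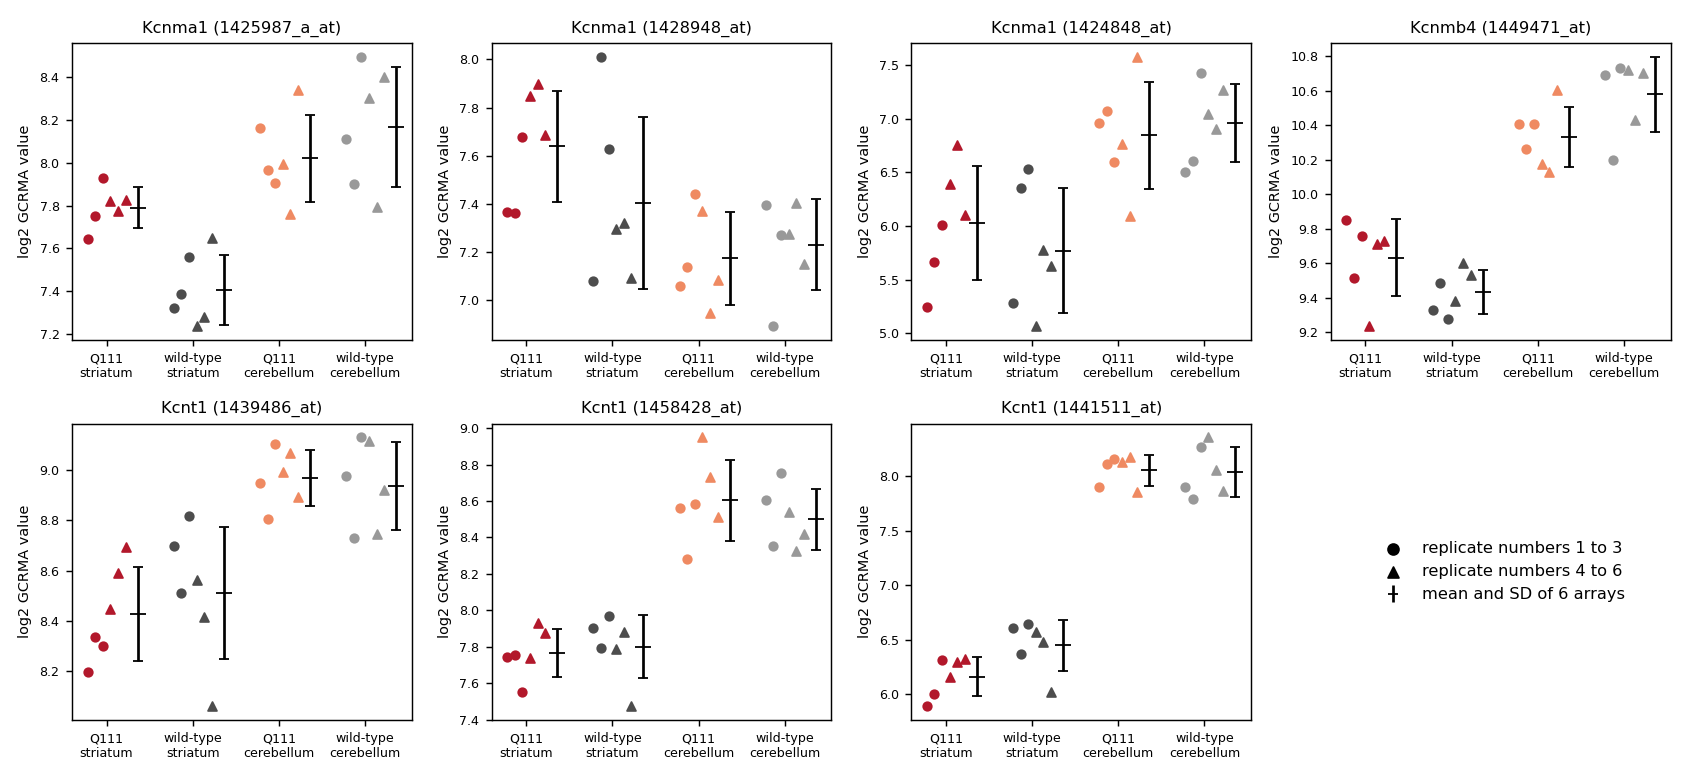
The 7 other channel probe sets that passed the filter, in each of 24 arrays. The vertical axes are log2 GCRMA values with a range of their own in each panel, circles are replicate numbers 1 to 3, triangles numbers 4 to 6, and bars the mean and SD of 6 arrays. For 1425987_a_at all 6 Q111 striatum arrays lie above the wild-type mean, and for 1424848_at the number sets of striatum shift in opposite directions in the 2 genotypes.

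Leaving Kcnn2 aside, 0 of the 7 other probe sets tested, and 0 of 3 genes, passed an adjusted p of 0.05 in limma in striatum, where 2.87% of all probe sets did. In cerebellum 0 of 7 passed, against a background of 0.458%, and for the difference between the tissues 0 of 7 passed, against 0.0868%. At an unadjusted p under 0.05 there were 2 probe sets in striatum (Kcnma1 1425987_a_at and Kcnt1 1441511_at), 1 in cerebellum (Kcnmb4) and 2 between the tissues (Kcnma1 1425987_a_at and Kcnmb4). Of all probe sets 19%, 13.8% and 10.1% had such a p in these 3 comparisons. The median difference of the 7 was 0.20 in striatum and -0.06 in cerebellum, beside -0.02 and -0.05 over all probe sets tested. In cerebellum the 7 lay between -0.25 and 0.11.

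**Figure D3:**
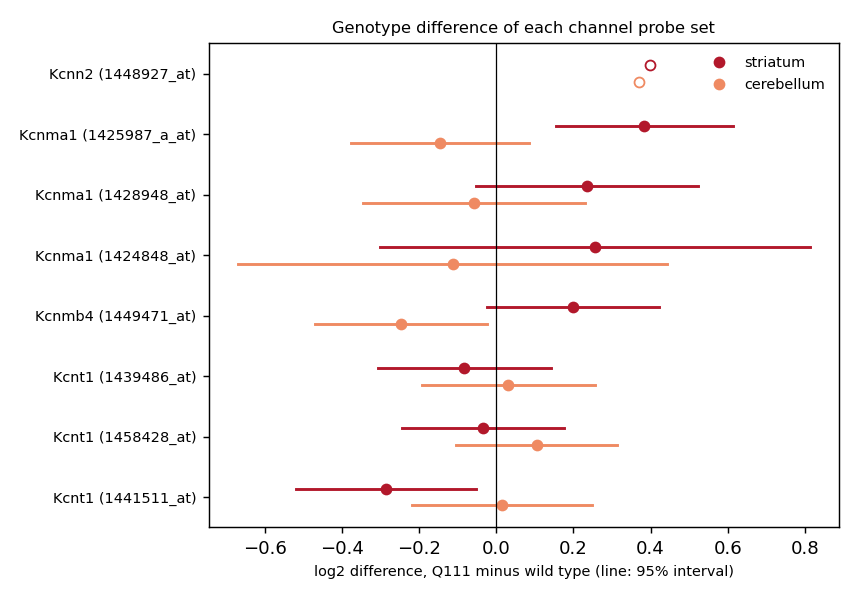
Genotype difference of each channel probe set, Q111 minus wild type, in striatum (dark) and cerebellum (light). The horizontal axis is the log2 difference, lines are 95% intervals from limma, and the open circles of Kcnn2 carry none because these differences chose it. Kcnn2 lies near 0.4 in both tissues, and Kcnma1 and Kcnmb4 lie right of 0 in striatum and left of it in cerebellum as deposited. In striatum Kcnmb4 is at -0.04 with the cortical covariate, and Kcnma1 1428948_at and 1424848_at are at -0.10 and -0.41 in numbers 1 to 3, where both are at 0.03 in cerebellum, and median centring moves 1428948_at there to 0.04.

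The difference between the tissues was not what Kcnn2 was chosen for, and it was tested for all 8 probe sets. The channel genes were, however, chosen with earlier results of these data known. In Q111 mice 6 of the 8 were lower in striatum than in cerebellum at a limma adjusted p of 0.05 and 1 was higher, and 3 of the 4 genes represented were lower. In wild-type mice 7 of the 8 were lower, and so were all 4 genes. These counts stand on a high background, since 71.4% of all probe sets differed between the tissues in Q111 mice and 71.8% in wild-type mice, with 40.1% and 41.2% lower in striatum and 31.3% and 30.6% higher. In each genotype 5 of the 8 probe sets were lower in striatum with no overlap between the tissues, as 28.5% of all probe sets were in Q111 mice and 30% in wild-type mice.

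Kcnn2 was 1.53-fold lower in striatum than in cerebellum in Q111 mice, a difference of -0.61 (SE 0.06, limma adjusted p = 3.21e-09). In wild-type mice it was 1.56-fold lower, with a difference of -0.64 (SE 0.06, limma adjusted p = 1.4e-09). Every striatum array lay below every cerebellum array of its genotype. Kcnmb4 was 1.62-fold lower in Q111 striatum, with a difference of -0.70, and 2.21-fold lower in wild-type striatum, with -1.14, again with no overlap between the tissues. The widest gap was that of Kcnt1 1441511_at, -1.89 in Q111 mice and -1.59 in wild-type mice. The differences of 1439486_at and 1458428_at, the other 2 Kcnt1 probe sets, were -0.54 and -0.84 in Q111 mice and -0.42 and -0.70 in wild-type mice.

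The probe sets of Kcnma1 did not share 1 tissue difference. That of 1425987_a_at was -0.23 in Q111 mice, which missed the threshold (limma adjusted p = 0.0685), and -0.76 in wild-type mice (limma adjusted p = 1.61e-06). The Q111 difference passed after median centring (limma adjusted p = 0.0386), with the replicate number as a block (0.0330) and without Q111 cerebellum replicate 5 (0.0311). Over the alternative settings its limma adjusted p reached 0.322. The change between these differences is the 0.53 tested above, which did not pass. For 1424848_at the differences were -0.82 in Q111 mice and -1.19 in wild-type mice (limma adjusted p = 0.00944 and 0.000403). Probe set 1428948_at lay on the other side, with 0.47 in Q111 mice (limma adjusted p = 0.00472) and 0.17 in wild-type mice (limma adjusted p = 0.268). Among replicate numbers 1 to 3 alone, the Q111 difference of 1428948_at and the wild-type difference of 1424848_at no longer passed, and among numbers 4 to 6 alone the Q111 difference of 1424848_at did not.

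**Figure D4:**
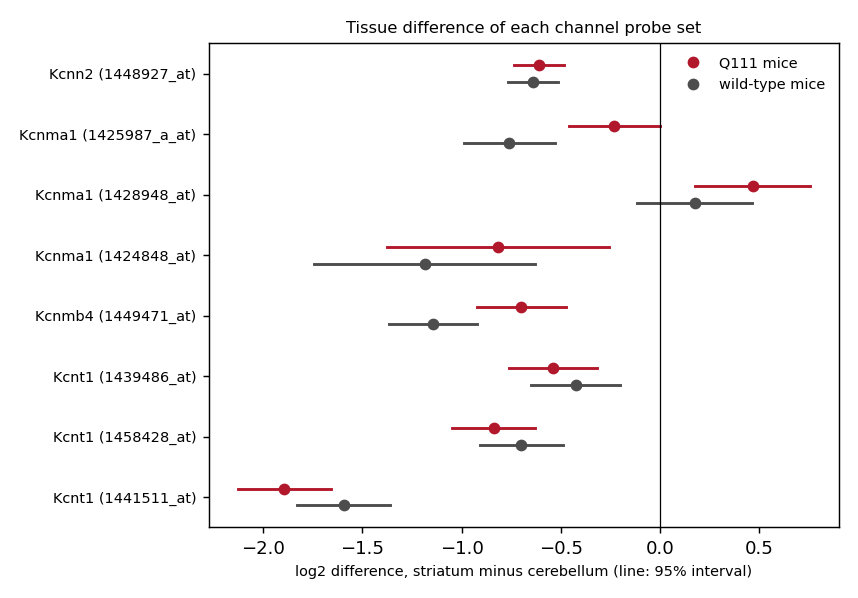
Tissue difference of each channel probe set, striatum minus cerebellum, in Q111 mice and in wild-type mice. The horizontal axis is the log2 difference and lines are 95% intervals from limma. All probe sets but Kcnma1 1428948_at lie left of 0. The gaps of Kcnma1 1425987_a_at and 1424848_at and of Kcnmb4 are narrower in Q111 mice. These changes did not pass the threshold (limma adjusted p = 0.174, 0.807 and 0.270).

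SK and BK channels work beside the calcium sources that open them, partner proteins, calcium pumps and other channels. From 5 lists of such genes and of channel relatives, 48 genes were read from the same fit. They were measured through 30 probe sets, 1 for each gene, and 0 of the 30 passed the threshold in striatum, in cerebellum or between the tissues. At an unadjusted p under 0.05 there were 1, 3 and 3 of them, beside the same 19%, 13.8% and 10.1% of all probe sets. Their median differences were 0.02 in striatum and -0.03 in cerebellum. The widest striatal difference was that of Cacna1g, the Cav3.1 T-type calcium channel, at 5.03 in Q111 striatum and 4.18 in wild-type striatum (difference 0.85, limma adjusted p = 0.121).

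Cacna1g in cerebellum differed by -0.27, and Cacna1a, the P/Q-type channel that feeds calcium to both SK and BK channels in Purkinje cells, by 0.17 in striatum. The L-type channel Cacna1c differed by -0.15 in cerebellum. Of the 9 relatives and accessory subunits of BK and sodium-activated channels only Kcnt2 and Lrrc38 were measured. Kcnt2, the closest relative of Kcnt1, differed by 0.41 in striatum (limma adjusted p = 0.338) and -0.07 in cerebellum, and Lrrc38, a BK accessory protein, by -0.06 and 0.08.

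Calmodulin, kinase CK2 and phosphatase PP2A form a complex with SK channels and tune their calcium sensitivity. The 3 calmodulin genes were not among the measured, and the 5 CK2 and PP2A genes that were did not pass in either tissue. Ppp2cb and Ppp2r1a, the widest in striatum, differed by -0.06 and -0.03, and in cerebellum Csnk2a2 and Ppp2r1a differed by -0.22 and 0.07. Among 12 measured calcium store, pump and exchanger genes, the ryanodine receptors Ryr1 and Ryr3 differed by -0.33 and -0.29 in striatum (limma adjusted p = 0.296 and 0.299). In cerebellum the sodium-calcium exchangers Slc8a1 and Slc8a3 differed by -0.57 and 0.26 (limma adjusted p = 0.240 and 0.241).

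Of other channels of the afterhyperpolarisation and of pacemaking, the M-current gene Kcnq5 and the pacemaker channel Hcn2 differed by 0.14 and 0.13 in striatum. In cerebellum Hcn2 differed by -0.37 (limma adjusted p = 0.309) and Kcnq3 by -0.09. Between wild-type tissues 16 of the same 30 genes were higher and 8 lower in striatum, against 30.6% and 41.2% of all probe sets. Kcnq5 was higher by 6.35 and Cacna1h, another T-type channel, by 6.25, both with cerebellar values under 4, while Cacna1g was lower by -5.80 and the calcium pump Atp2a3 by -5.52. Ryr3 was higher by 3.12 and Kcnt2, also with cerebellar values under 4, by 2.49, and Ppp2cb, Csnk2a1 and Lrrc38 moved by 0.34, -0.20 and -0.18. At values under 4 the size of a gap is uncertain.

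Markers of other cells moved with genotype in the same arrays. Of 10 genes of cortical projection neurons 8 were measured, and all 8 were higher on average in Q111 striatum. Neurod6 (1.12, limma adjusted p = 0.00345) and Fezf2 (0.71, limma adjusted p = 0.0132) passed the threshold, as 2.87% of all probe sets did. The mean level of the 8 was 7.69 in Q111 striatum (range 7.13 to 8.09) and 7.22 in wild-type striatum (range 6.90 to 7.55), and it differed by -0.02 in cerebellum. In Q111 striatum the array with the lowest cortical level, 7.13, lay within the wild-type range and had the lowest Kcnn2 value of its group, 8.54. In wild-type striatum the arrays did not share 1 direction. The array with the highest Kcnn2 value, 8.37, had a cortical level of 6.94, and that with the lowest, 8.21, had 7.50. Among the remaining wild-type striatum arrays Kcnn2 rose with the cortical level, from 8.25 at a level of 6.90 to 8.34 at 7.55. With the cortical level as a covariate the striatal difference of Kcnn2 was 0.35 and that of Kcnma1 1425987_a_at 0.37 (limma adjusted p = 0.261), while that of Kcnmb4 was -0.04, against 0.20 without it. In cerebellum Kcnn2 differed by 0.37 with the covariate and without it. In each genotype 3 of the 8 genes were lower in striatum than in cerebellum past the threshold. The level of the list in cerebellum therefore cannot be read as cortical tissue. Nothing about cortical tissue is concluded from the unchanged 0.37.

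**Figure D5:**
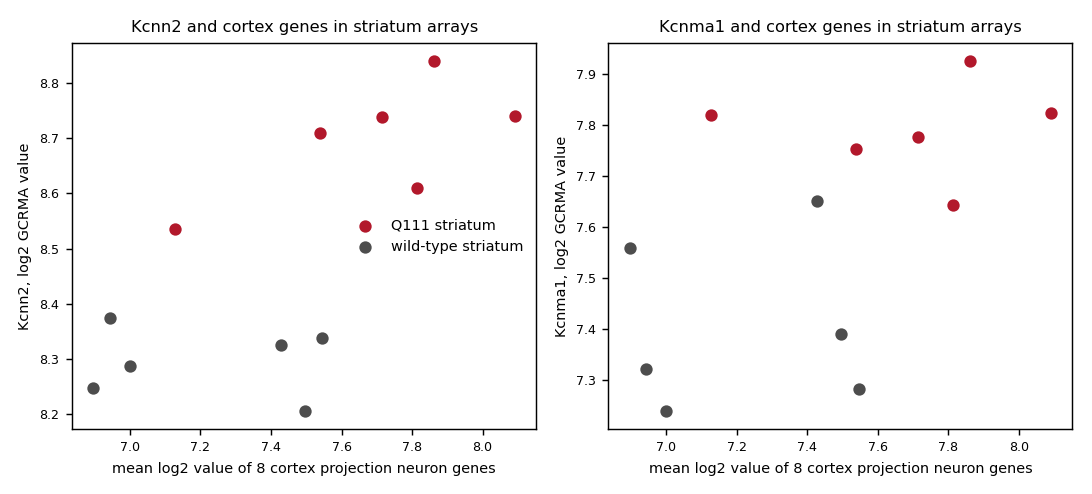
Kcnn2 (left) and Kcnma1 1425987_a_at (right) against the mean log2 value of 8 genes of cortical projection neurons in the 12 striatum arrays. Both axes are log2 GCRMA values and each point is an array. The cortical level runs from 7.13 to 8.09 in Q111 striatum and from 6.90 to 7.55 in wild-type striatum. The Q111 array at 7.13 has the lowest Kcnn2 value of its group, 8.54. The wild-type array at 6.94 has the highest of its group, 8.37, and that at 7.50 the lowest, 8.21. In the remaining wild-type arrays Kcnn2 rises with the cortical level.

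The mean levels of the microglial, endothelial and mural, and oligodendrocyte lists differed in the same direction in both tissues. So did those of Purkinje cells (-0.12 in striatum and -0.15 in cerebellum), parvalbumin and somatostatin interneurons (-0.01 and -0.19), and astrocytes and Bergmann glia (-0.02 and -0.06). The astrocyte values are close to the medians of all probe sets tested, -0.02 and -0.05. The Purkinje list in striatum cannot be read as Purkinje cells. Of the interneuron genes in cerebellum, Sst differed by -0.41 at means under 4, Nos1 by -0.33, Pvalb by 0.04 and Npy by -0.04. Of the first 3 lists 0 genes passed in limma in cerebellum (at an unadjusted p under 0.05 it was 3 microglial, 2 endothelial and mural and 1 oligodendrocyte genes). Over all probe sets 2.87% passed in striatum and 0.458% in cerebellum. Of 8 microglial genes 7 were measured, and C1qa, C1qb and C1qc passed upward and Aif1 downward in striatum, where the median difference of the 7 was 0.01. Their mean level was 7.98 in Q111 striatum (range 7.89 to 8.15) and 7.76 in wild-type striatum (range 7.53 to 7.92), and 5.86 in Q111 cerebellum (range 5.62 to 6.15) and 5.65 in wild-type cerebellum (range 5.44 to 5.86). Of 10 endothelial and mural genes 7 were measured, with Cldn5 and Rgs5 past the threshold downward in striatum, and the mean level differed by -0.26 in striatum and -0.19 in cerebellum. The 7 measured oligodendrocyte genes differed by -0.26 and -0.19 in mean level, with 0 past the threshold in limma and 4 and 1 at an unadjusted p under 0.05, as 19% and 13.8% of all probe sets were. The part of these lists in the channel differences was not tested. Striatal projection neuron markers, the commonest cells of the striatum, differed by -0.14 in mean level in striatum, and Purkinje cell markers by -0.15 in cerebellum, and no gene of either list passed in limma (2 of 10 and 1 of 7 at an unadjusted p under 0.05).

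Over the 24 arrays, with each tissue's mean subtracted, the genes most like Kcnn2 among 10765 were Spock1 (Pearson r = 0.836), Mrpl33 (0.834), Cep19 (0.825), Prss23 (0.816) and Tmem242 (0.799). The most opposed were Nudt19 (-0.918), Ets1 (-0.883), Atraid (-0.875), Klk6 (-0.873) and Mid1ip1 (-0.862). Both sets carry a genotype difference in both tissues, from 0.97 for Tmem242 to -1.71 for Nudt19 in striatum, and these correlations, which share the arrays and their processing, describe that. With each group's mean subtracted instead, the genes most like Kcnn2 were Ubr1 (0.755), Brd9 (0.716) and Sf3b2 (0.714), none of which was in the first set. On that measure Kcnn2 correlated at 0.11 with Kcnma1 1425987_a_at and at 0.23 with Kcnmb4, and at 0.51 with Kcnt1 1441511_at.

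The 3 Kcnt1 probe sets correlated with each other at 0.50 to 0.77 on the same measure. Those of Kcnma1 did so less evenly, since 1424848_at correlated at 0.61 with 1425987_a_at and at 0.56 with 1428948_at, but the last 2 correlated at 0.06. The nearest measured genes on each side of Kcnn2 on chromosome 18 were Ythdc2, which differed by 0.13 in striatum and -0.21 in cerebellum, and Trim36, which differed by -0.05 and 0.08. Neither passed the threshold, with limma adjusted p-values of 0.322 and 0.186 for Ythdc2 and of 0.755 and 0.667 for Trim36. Of all 14 genes next to the 7 channel genes 0 passed the threshold in limma in either tissue (at an unadjusted p under 0.05 it was 2 in striatum and 4 in cerebellum, and 19% and 13.8% of all probe sets), the nearest being Zfp61 beside Kcnn4 at -0.28 in striatum (limma adjusted p = 0.0882).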

How the data were processed

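Per the labels' protocols, RNA was prepared with Trizol and a Qiagen column and given a biotin label. It was read on 24 Affymetrix arrays. The authors deposited GCRMA values, per the submitters' processing notes. By its usual definition, GCRMA corrects background by probe sequence, normalises the arrays to a shared distribution and summarises each probe set. The GCRMA version and the log base were not given in the sources used here, and the deposited values were read as log2 because they ran from -0.77 to 16.33. Array medians lay between 3.38 and 3.51.

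From 45101 probe sets, 64 controls were left out, and 20738 with a mean of at least 4 in striatum or cerebellum were kept. All arrays entered 1 model with a mean per group in limma 3.58.1 (R 4.3.3, 20 residual degrees of freedom), with p-values adjusted by Benjamini-Hochberg over all 20738 and a threshold of 0.05. Arrays of a group correlated at 0.983 to 0.993 over kept probe sets, and the number of arrays limits the precision. Single values were also put to an exact permutation test, two-sided, of 6 arrays against 6. Q111 was set against wild type in striatum and in cerebellum, and these differences against each other, and striatum against cerebellum in each genotype. The model was tested on simulated arrays.

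The channel genes, the 5 lists of related genes and the marker lists were chosen with earlier results of these data known. The genes named were all 7 channel genes. From each related list and genotype contrast they were up to 3 past the threshold, or otherwise the 2 widest, and in the wild-type tissue contrast the widest each way. The 5 genes most and least like Kcnn2, and the genes next to each channel gene, were named too. Interaction values of related genes are given as counts. A list's level on an array is the mean of its genes' values. Gene symbols came from the platform annotation, and gene order and promoters from RefSeq tables of GRCm38.p6. Numbers shared by groups were not taken as pairs, since no label gives them as such. Same-numbered Q111 and wild-type arrays correlated at -0.409 to -0.088 in striatum and -0.423 to 0.119 in cerebellum after the group means were subtracted. The opposite shifts of the number sets in the 2 genotypes lower such correlations, which therefore cannot decide whether numbers mark pairs. Striatum and cerebellum arrays of a number correlated at -0.055 to 0.142 in Q111 mice and -0.0043 to 0.183 in wild-type mice, above 0.1 for 2 and 3 of 6 numbers.

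The alternatives covered the filter, the scaling, array weights, the variance prior, a term for the replicate number or for the number set, either number set or tissue alone, the cortical level as a covariate, the probe set that stands for a gene, the threshold, and leaving out each array. Figures were drawn with matplotlib 3.10.9.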

Additional observations from a re-analysis of the deposited data

Results flagged for a closer look

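In 1 of 32 combinations of a tested channel probe set and a group, a single array stood far from the other 5. Kcnt1 1458428_at read 7.473 in wild-type striatum replicate 6, below the other wild-type striatum arrays, and the gap to the nearest was 0.637 of the group's range, more than Dixon's critical value for 6 arrays. Chance flags about 1 in 20 groups. The same array was also the lowest of its group for the other Kcnt1 probe sets, at 8.06 for 1439486_at and 6.02 for 1441511_at.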

How the results depend on the processing

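Under 15 alternative settings and with each of the 24 arrays left out, no channel probe set that had passed the threshold changed sign. The count of channel genes past it in striatum, 0 with Kcnn2 set aside, became 1 (Kcnma1) with a further quantile normalisation, with median centring, with array weights and with striatum fitted alone. Leaving out an array kept it at 0 in striatum, cerebellum and the difference between them, at 3 to 4 between Q111 tissues and at 4 between wild-type tissues. Between Q111 tissues Kcnma1 1425987_a_at passed without Q111 cerebellum replicate 5 (limma adjusted p = 0.0311). With the replicate number as a block the counts were 0 in the first 3 of these and 4 in each genotype between tissues, again with Kcnma1 in Q111 mice (limma adjusted p = 0.0330), where median centring also gave 4. Between genotypes, same-numbered arrays correlated best with each other in 0 of 6 cases in each tissue. Between tissues they did so in 2 of 6 cases in Q111 mice and 3 of 6 in wild-type mice, among 6 candidates each. Whether arrays of a number shared a mouse is given by no label, and the main fit took all arrays as separate. Over all probe sets the block left 153 calls in striatum, against 595, and 53 in cerebellum, against 95. With the number set in the model there were 316 and 49, in numbers 1 to 3 alone 242 and 11, and in numbers 4 to 6 alone 251 and 18. Without the filter there were 384 in striatum, and array weights gave 396 in cerebellum. Leaving out an array gave 219 (without wild-type striatum replicate 4) to 689 in striatum and 34 (without Q111 cerebellum replicate 3) to 252 (without Q111 cerebellum replicate 6) in cerebellum. The stricter adjusted p of 0.01 gave 86 and 28, the 1.5-fold minimum 181 and 53, and the cortical covariate 71 and 235. Higher calls made up 173 of 595 in striatum and 20 of 95 in cerebellum, against 310 of 642 and 45 of 84 after quantile normalisation and 331 of 578 and 90 of 125 after median centring, so that split depends on the scaling. For the difference between tissues the 18 calls became 1 with the block, 6 with the number set, 10 and 30 in the number sets alone and 64 with array weights.

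Between wild-type tissues Kcnt1 1439486_at missed the threshold in numbers 1 to 3 alone (-0.27, limma adjusted p = 0.0864), and in both genotypes it was under 1.5-fold. The striatal difference of Kcnn2 ran from 0.35 to 0.45 over the settings and from 0.37 to 0.43 without each array, and the cerebellar one from 0.34 to 0.47 and from 0.35 to 0.41. Their difference, 0.03, was below 0 with median centring (-0.0218), array weights (-0.00659), the cortical covariate (-0.0242), and without Q111 striatum replicate 3 or wild-type cerebellum replicate 4. Differences that missed the threshold changed sign as follows, and the cause was not tested. Quantile normalisation and median centring turned Kcnt1 1458428_at in striatum to 0.0168 and 0.0154, and Kcnma1 1428948_at in cerebellum to 0.0358 and 0.0422. In numbers 1 to 3 alone, Kcnma1 1428948_at and 1424848_at were -0.10 and -0.41 in striatum, 0.0277 and 0.0339 in cerebellum and -0.13 and -0.45 between the tissues, and Kcnt1 1458428_at was -0.0935 in cerebellum. In numbers 4 to 6 alone, Kcnt1 1439486_at was 0.23 in striatum and 0.17 between the tissues, Kcnt1 1458428_at 0.14 in striatum, Kcnt1 1441511_at -0.0413 in cerebellum, and Kcnma1 1428948_at -0.0392 between wild-type tissues. With the cortical level as a covariate Kcnmb4 was -0.0422, Kcnt1 1439486_at 0.0221 and Kcnt1 1458428_at 0.0120 in striatum. Leaving out single arrays put Kcnt1 1439486_at between -0.00945 (without wild-type cerebellum replicate 2) and 0.0705 in cerebellum, below 0 without wild-type cerebellum replicate 2 or 5.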
